A study of Homo sapiens with 24 samples.

Results

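A set of 5 RefSeq transcript records of the humanin-like kind was followed through maps of N1-methyladenosine (m1A) in HEK293T, a cell line from human embryonic kidney. The records were NM_001190470, NM_001190702, NM_001190476, NM_001190452 and NM_001190706. They were selected on having a peak in all 10 deposited peak lists and on the height of those peaks, so their presence and height in the lists are descriptions and not tested results. They were 5 of 17315 transcripts with a peak in any list, and 5 of 143 with a peak in every list. Just outside the selection, NM_001190472 and NM_001190708 had a peak in 8 lists each.

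The lists came from anti-m1A immunoprecipitation (IP) of polyadenylated RNA, with 2 replicate lists for each of 5 conditions. KO cells lacked ALKBH3, a demethylase of m1A, and WT cells were wild type. H2O2 cells were wild type and received 50 µM hydrogen peroxide for 30 min, Starve cells were wild type and were kept without serum for 16 h, and UT cells were wild type and untreated. All cells were grown in 10% fetal bovine serum before treatment. For KO and WT cells there were also IP libraries treated with a demethylase, which removes the methyl group before sequencing. The labels do not say whether the knockout was 1 clone or whether replicates were separate cultures, so spread between replicates may be technical.

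m1A adds a methyl group to the base-pairing face of adenosine. This blocks many reverse transcriptases, so reads tend to stop or thin out at the modified base, and treatment with a demethylase lets reads run through it. The 16S ribosomal RNA of mitochondria carries m1A made by TRMT61B, and the 28S ribosomal RNA of the cytoplasm carries one made by RRP8. Humanin is a short peptide with cell-protective activity, read from an open frame within the mitochondrial 16S ribosomal RNA. Nuclear copies of that RNA have been annotated as humanin-like genes. Reads from the mitochondrial RNA and from nuclear copies can be near-identical, and the counting used here may have divided them among records or stacked them on one, so which RNA molecule a peak came from is uncertain.

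The gene table gave a symbol to 0 of the 5 records. It lists 13 MTRNR2L genes, all 13 as pseudogenes and 0 with a transcript record, so the working name "humanin-like" could not be tied to a named gene and the records are called by their identifiers. Positions are nucleotides on the transcript record as the lists give them, and genomic positions and sequences were not used here. Peak lists also hold too few genes to check the cell type.

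The lists held 2175 to 11362 peaks each. The pileup, which is the read coverage at the peak's summit, summed to between 2061631 and 3513267 over a list. ALKBH3 had 0 peaks in the lists, which therefore cannot check the knockout. The first WT list stood apart from the other lists on the humanin-like transcripts, so each result that includes it is also given without it. The UT lists were assigned by file naming. Descriptions of the UT libraries point to the Starve lists, and the peak names within the UT lists hold WT. Values called UT, and the direction of Starve against UT, rest on that assignment.

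Each humanin-like transcript carried 1 dominant peak at the same place in each of the 10 lists. There were 55 peaks on the 5 transcripts, of which 50 were the strongest of their transcript in a list. On NM_001190470 the summit lay between nt 933 and 938. On NM_001190702 it lay between nt 986 and 995, and on NM_001190452 between nt 983 and 997. On NM_001190476 the summit lay between nt 269 and 288, and on NM_001190706 between nt 100 and 111. The summit positions of NM_001190702 and NM_001190452 overlapped, whereas the other 3 transcripts had theirs elsewhere.

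The 5 transcripts thus varied by 5, 9, 19, 14 and 11 nt over the lists in the order named at the start, and all 5 stayed within 20 nt. Among the other 138 transcripts with a peak in every list, 6 stayed within 20 nt (4.35%), and the median range was 902 nt. A wide range can arise where a transcript has several peaks and a different one is strongest in different lists, which was not tested. The humanin-like transcripts ranked 2, 3, 9, 5 and 4 of 143 for the narrowness of this range. This is a description, since strong peaks have better placed summits and strength was part of the selection.

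The strongest peak on 28S ribosomal RNA (RNA28SN5) had no such fixed place. Its summit lay between nt 1376 and 1383 in KO and WT lists and between nt 1262 and 1266 in H2O2, Starve and UT lists. Of the humanin-like transcripts, NM_001190706 had a small step of another kind. Its summit was at nt 100 in each KO, WT and H2O2 list, at nt 105 in both Starve lists, and at nt 110 and 111 in the UT lists.

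**Figure D1:**
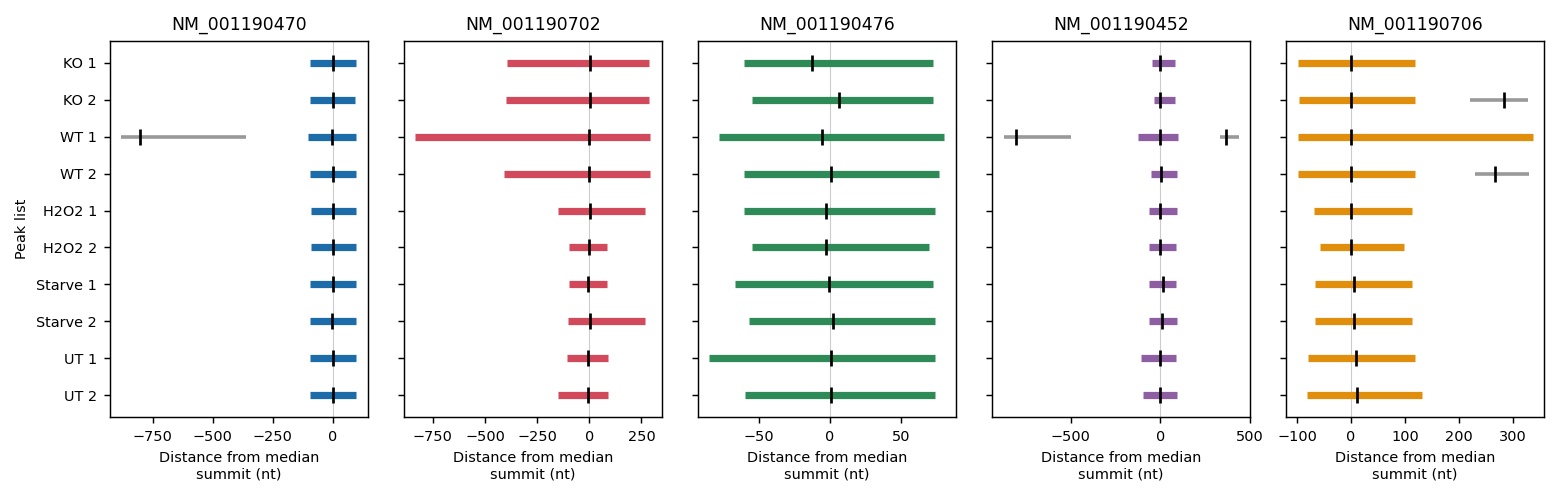
Peaks on the 5 humanin-like transcripts in each of the 10 lists, drawn as the distance in nt from the transcript's median summit. Thick bars are the strongest peak of a list, thin grey bars the other peaks, and black ticks the summits. The summits line up to within 19 nt or less on each transcript, and the bars of NM_001190702 are longest in the KO and WT lists.

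Peak lengths were less alike than summits. The peak on NM_001190470 was 187 to 201 nt long. The peak on NM_001190702 was 685 and 686 nt long in KO lists and 1128 and 701 nt in WT lists. In H2O2 lists it was 418 and 187 nt long, in Starve lists 184 and 370 nt, and in UT lists 200 and 244 nt. All 4 KO and WT lists thus had longer NM_001190702 peaks than any of the other 6, and the KO lists lay below both WT lists. Median peak lengths of whole lists split the same way. They were 130 and 126 nt in KO lists and 117 and 127 nt in WT lists. In each H2O2, Starve and UT list the median was 100 nt. The summit on 28S ribosomal RNA also differed between the same 2 sets of lists. The part of these wider differences in the NM_001190702 lengths was not tested.

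The 5 weaker peaks were in KO and WT lists. NM_001190706 had a second peak at nt 321 to 429 in the second KO list and at nt 330 to 431 in the second WT list, with fold enrichments of 2.99 and 2.81. In the first WT list that stretch was part of the main peak, which ran from nt 1 to 437. NM_001190452 had peaks at nt 110 to 484 and nt 1318 to 1420 in the first WT list, and NM_001190470 had one at nt 55 to 574 in the same list. Of the 5 weaker peaks, 3 were therefore in the first WT list.

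Fold enrichment is the authors' peak-caller value, the pileup over the local background, and it was not scaled between lists. NM_001190470 had the highest fold of the 5 transcripts in each list. Its fold was 108 and 82.0 in KO lists and 2398 and 215 in WT lists. It was 147 and 103 in H2O2 lists, 126 and 186 in Starve lists, and 205 and 187 in UT lists. Within each list it ranked 1 or 2 of all peaks by fold, and it had the highest median fold over lists (167) of the 143 transcripts found in every list. The first WT list was far above the other 9, of which the second WT list was the highest. Both UT lists lay above each KO, H2O2 and Starve list. The H2O2 lists overlapped both the KO and the Starve lists, whereas both Starve lists lay above both KO lists.

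NM_001190702 had folds of 42.6 and 31.1 in KO lists and 537 and 60.8 in WT lists. Its fold was 36.3 and 20.2 in H2O2 lists, 25.8 and 37.4 in Starve lists, and 40.4 and 38.9 in UT lists. Outside the first WT list its folds thus lay between 20.2 and 60.8. It was among the 10 highest folds in 9 of 10 lists, the exception being the second H2O2 list, where it ranked 544.

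NM_001190476 had folds of 44.6 and 33.3 in KO lists and 457 and 72.2 in WT lists. Its fold was 80.3 and 11.8 in H2O2 lists, 47.3 and 75.1 in Starve lists, and 68.5 and 85.0 in UT lists. The second H2O2 list was low, and there the transcript ranked 1342, whereas in the other 9 lists it ranked among the 10 highest. Its pileup was the lowest of the 5 transcripts in each list, from 124 in the second H2O2 list to 4965 in the first WT list. Its local background, computed as pileup plus 1 over fold, less 1, was within 1% of the lowest in the list in 9 of 10 lists. Such a background was common in some lists. In the first UT list the lowest was 10.0299 and the median of all peaks 10.03. The pileup of NM_001190476 there was 754, against a list median of 56. Over the lists the median local background was 9.86 for NM_001190476, against 806 for NM_001190702, so equal folds on these transcripts stand for very different coverage.

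NM_001190452 and NM_001190706 stood in a different order in the 2 sets of lists. NM_001190452 had folds of 6.29 and 5.40 in KO lists and 98.0 and 17.2 in WT lists. Its fold was 22.5 and 11.6 in H2O2 lists, 15.7 and 22.4 in Starve lists, and 29.0 and 24.3 in UT lists. The KO lists had the lowest folds of the 10 for this transcript. They did not have its lowest pileups, which were 2106 and 1797 in KO lists and 1035 in the second H2O2 list. The background behind it, pileup plus 1 over fold, less 1, was highest in the KO lists, at 334 and 332.

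NM_001190706 had folds of 50.0 and 38.1 in KO lists and 751 and 58.1 in WT lists. Its fold was 10.3 and 5.72 in H2O2 lists, 7.82 and 7.77 in Starve lists, and 16.9 and 16.3 in UT lists. It was above NM_001190452 in the 4 KO and WT lists and below it in the other 6. It ranked among the 10 highest folds in 4 of 10 lists and as low as 3507 in the second Starve list.

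Pileup kept a fixed order at the top. NM_001190470 had the highest, from 31695 to 571990, and NM_001190702 the next, from 16030 to 327662. NM_001190706 followed, from 3894 to 211406, then NM_001190452, from 1035 to 12204. Since pileup is coverage at 1 position, it does not grow with transcript length. By median pileup over the lists NM_001190470, NM_001190702 and NM_001190706 ranked 2, 3 and 4 of the 143 transcripts, NM_001190452 ranked 17 and NM_001190476 ranked 29.

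**Figure D2:**
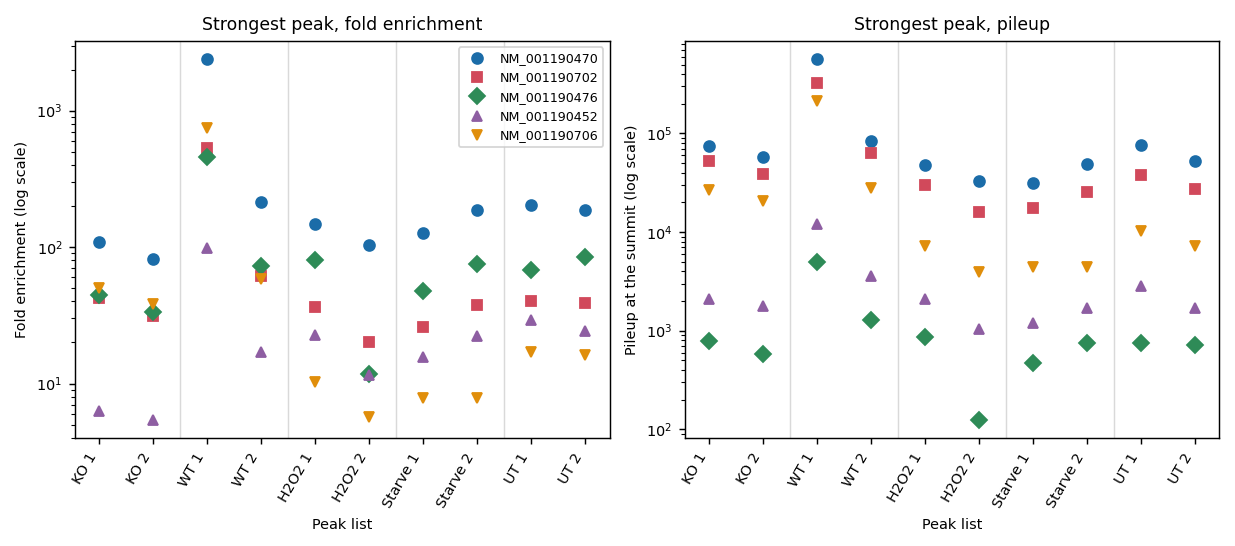
Fold enrichment (left) and pileup (right) of the strongest peak on each humanin-like transcript in the 10 lists, both on log axes, 1 point per list. In the first WT list the folds run from 98.0 to 2398, above each transcript's value in the other 9 lists.

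The first WT list gave all 5 transcripts far more signal than the second. Over the 1098 transcripts with a peak in both WT lists, the fold in the first list was at least 4 times that in the second for 14, or 1.28%. All 5 humanin-like transcripts were among these 14. The contrast between the WT lists was part of what defined the set, so nothing is read from this count.

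The ratio of the first WT list to the second was 12.9 for NM_001190706, 11.2 for NM_001190470, 8.82 for NM_001190702, 6.33 for NM_001190476 and 5.71 for NM_001190452. The median over the 1098 transcripts was 0.919, with quartiles of 0.665 and 1.25. Of the transcripts with a known symbol in the group of 14, CYREN, a regulator of DNA end joining, reached 6.36 and METTL17, a mitochondrial ribosome assembly factor, reached 6.32. Records of the kinase MAPK3, the cap-binding factor EIF4E and the prenyl-binding protein PDE6D made up another 4. The remaining 3, NM_001080542, NM_001190472 and NM_001190708, had no symbol, with ratios of 7.91, 6.82 and 6.65.

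The excess was in coverage and in background at once. The pileup ratio of the first WT list to the second was 7.64 for NM_001190706, 6.81 for NM_001190470, 5.20 for NM_001190702, 3.88 for NM_001190476 and 3.43 for NM_001190452, against a median of 0.553 over all 1098 transcripts. The background behind NM_001190470 was 238 in the first WT list and 390 in the second, and that behind NM_001190702 was 610 and 1034. The lowest background in the whole list was 9.55 in the first WT list and 16.7 in the second. Higher coverage and lower background in the first list thus both raised its folds. By pileup, 5 transcripts reached a ratio of 4: NM_001190706, NM_001190470, NM_001190702 and 2 others outside the set, NM_001080542 and NM_001190472.

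**Figure D3:**
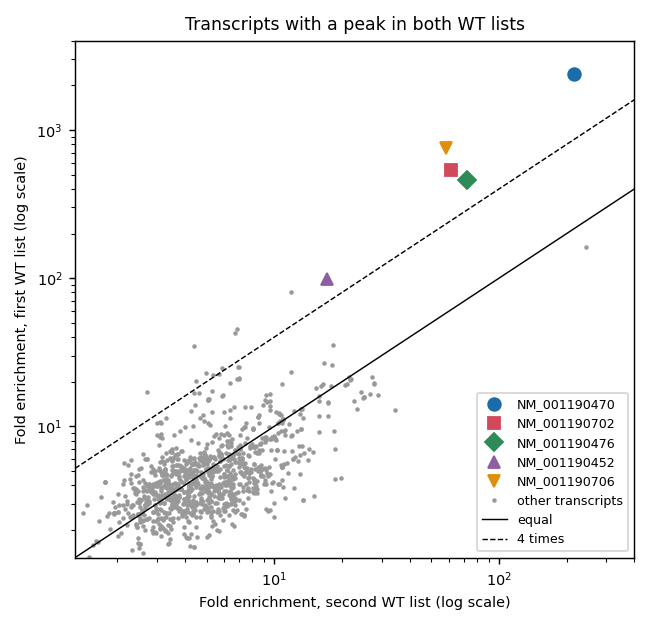
Fold enrichment of 1098 transcripts with a peak in both WT lists, the first list on the vertical and the second on the horizontal log axis. The solid line marks equal folds and the dashed line a ratio of 4. The 5 humanin-like transcripts lie above the dashed line, with ratios from 5.71 to 12.9.

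In the first WT list the 5 transcripts held 46.7% of the summed pileup of all peaks. In the other 9 lists they held 1.90% to 5.77%, with a median of 4.31%. The share was 5.77% and 4.35% in KO lists and 5.12% in the second WT list. It was 3.26% and 1.90% in H2O2 lists, 2.22% and 3.02% in Starve lists, and 4.64% and 4.31% in UT lists. All 4 H2O2 and Starve lists lay below both UT lists.

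Peaks on 28S ribosomal RNA held 40.0% of the pileup in the first WT list and 52.2% to 72.4% in the other lists. All remaining peaks summed to 326221 in the first WT list and to between 550293 and 1196011 in the others. The high share of the humanin-like transcripts in the first WT list thus stood beside less pileup on both 28S ribosomal RNA and other transcripts, and beside the fewest peaks. Beside the 28S ribosomal RNA peak of its list, the NM_001190470 pileup was 59.1% in the first WT list, 3.40% in the second WT list, and 4.89% and 3.52% in the KO lists. The part of these differences in the first WT list was not tested. In lists of this kind, more molecules of an RNA and more methylation per molecule cannot be told apart.

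**Figure D4:**
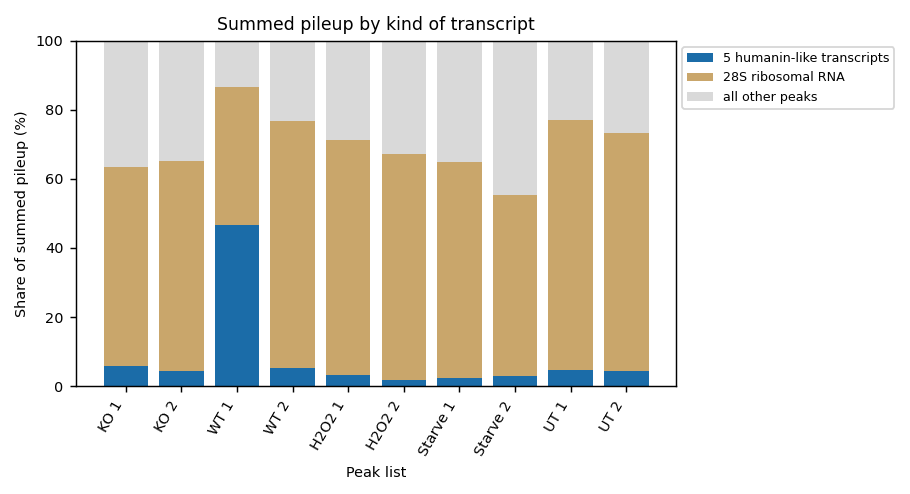
Share of the summed pileup of each list, in percent, on the 5 humanin-like transcripts, on 28S ribosomal RNA and on all other peaks, 1 bar per list. The humanin-like share is 46.7% in the first WT list and at most 5.77% in the other 9.

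Loss of ALKBH3 was set against WT for each transcript. The fold of NM_001190470 averaged 95.2 ± 18.8 in KO lists and 1306 ± 1543 in WT lists (SD, n = 2 lists each). NM_001190452 averaged 5.84 ± 0.629 in KO lists and 57.6 ± 57.2 in WT lists. Both KO lists were below both WT lists for 5 of the 5 transcripts. The same was so for 38.9% of the 542 transcripts with a peak in all 4 lists, and both KO lists were above both WT lists for 19.6% of them and for 0 of the 5.

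Because 1 WT list stood apart, the KO lists were also set against the second WT list alone. Both KO lists were again lower for 5 of 5 transcripts, against 43.2% of 1164 transcripts, and 40.8% of those 1164 were higher. The mean KO fold over that of the second WT list was 0.341 for NM_001190452, 0.443 for NM_001190470, 0.539 for NM_001190476, 0.605 for NM_001190702 and 0.758 for NM_001190706. By pileup these ratios were 0.549, 0.786, 0.535, 0.727 and 0.858 in the same order. The background behind NM_001190470 was 690 and 697 in KO lists and 390 in the second WT list. That behind NM_001190476 was 16.6 and 16.5 in KO lists and 16.7 in the second WT list. With the first WT list included, the fold ratios to the WT mean were 0.101, 0.0729, 0.147, 0.123 and 0.109. That list alone thus set most of the size of the KO to WT difference. The direction also depended on the scale. As a percent of the 28S ribosomal RNA pileup of the list, NM_001190470 was at 4.89% and 3.52% in KO lists against 3.40% in the second WT list, and NM_001190706 at 1.76% and 1.26% against 1.12%. On that scale both KO lists were higher for these 2 transcripts, lower for NM_001190476 and NM_001190452, and on either side for NM_001190702. With 2 lists against 2 the smallest exact permutation p is 0.333, so no single transcript can pass a threshold of 0.05.

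Oxidative stress and serum withdrawal were both set against the same UT lists, so their values are not independent. They also rest on the assignment of the UT lists by file naming. Folds of NM_001190706 averaged 7.99 ± 3.21 in H2O2 lists and 7.80 ± 0.0374 in Starve lists, against 16.6 ± 0.475 in UT lists (SD, n = 2 lists each). Folds of NM_001190470 averaged 125 ± 31.2 in H2O2 lists and 156 ± 42.6 in Starve lists, against 196 ± 12.6 in UT lists. Both stressed lists lay below both UT lists for NM_001190470, NM_001190702, NM_001190452 and NM_001190706 under each stress, and the lists overlapped for NM_001190476.

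Those 4 of 5 stood beside 6.94% of 749 transcripts with both H2O2 lists lower than both UT lists, and 33.8% with both higher. For Starve against UT they stood beside 9.17% of 1254 transcripts lower and 28.9% higher. Most transcripts that separated under stress therefore had higher folds, while these 4 had lower folds. Lower folds under stress were not particular to them. The strongest peak on 28S ribosomal RNA had folds of 63.3 and 63.1 in H2O2 lists and 75.8 and 68.1 in Starve lists. In UT lists it had 90.8 and 85.1. The median fold of all peaks was 4.79 and 8.27 in H2O2 lists and 4.04 and 6.64 in Starve lists, against 3.90 and 4.16 in the UT lists. The second list of each stress thus had a higher scale, while the first Starve list lay between the UT lists. The pileup of NM_001190470 and NM_001190706 was also lower in both H2O2 lists than in either UT list, whereas that of NM_001190702, NM_001190476 and NM_001190452 overlapped. In Starve lists the pileup was lower than in either UT list for the same 4 transcripts as the fold. The share of all transcripts with a lower pileup under stress was not computed, and library depths are unknown. Nothing is therefore read from these pileup values. These are descriptions of 2 lists a group.

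The windowed files show how coverage was spread along a region in IP libraries and in IP libraries treated with the demethylase. Values were rescaled so that the windows of a region average 5 in each library, and only the shape of a profile can therefore be compared. In both genotypes, the demethylase columns of the 2 replicate files were equal up to a constant factor at 100% of comparable windows, namely 26498 in KO and 11252 in WT. The IP columns agreed in this way at 1.96% and 2.28%. The demethylase signal was therefore counted as 1 library for each genotype, and it has no replicate spread of its own.

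Across all windows, limma with Benjamini-Hochberg adjustment called 0% of 67072 windows higher and 0% lower with demethylase than without in KO, and 0% and 0% of 24972 in WT. It accordingly called 0 of 211 windows on the humanin-like transcripts in KO and 0 of 234 in WT. At an unadjusted p under 0.05 there were 76 of these windows in KO (36.0%, against 25.8% of all windows) and 96 in WT (41.0%, against 31.8%). They were not spread over the set. In KO 55 were on NM_001190702, 20 on NM_001190452 and 1 on NM_001190476. In WT 34 were on NM_001190702, 28 on NM_001190452 and 34 on NM_001190706. Neighbouring windows overlap, so these are not counts of independent windows. The lowest adjusted p on these transcripts was 0.0797 in KO and 0.0710 in WT by limma. With a pseudocount of 0.1 in place of 1 the WT count was 3 of 234 windows on these transcripts, beside 2826 of 24972 in all. Since each genotype has 1 demethylase library, the profiles are given as values.

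NM_001190470, the strongest of the 5, had nearly the same profile with and without demethylase. Within 25 nt of its median summit the mean coverage was 11.2 with demethylase in KO, against 11.2 and 11.2 in the KO IP libraries. In WT it was 11.3 with demethylase, against 11.3 and 11.2 in the IP libraries. The highest window began at nt 935 in all 6 libraries. The centre of the profile with demethylase minus that of each IP library was 2.01 and 3.43 nt in KO and -1.57 and 0.441 nt in WT. A difference in height would be lost in the rescaling.

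NM_001190476 likewise had near-equal profiles. Its mean coverage near the summit was 8.91 with demethylase against 8.88 and 8.90 with IP alone in KO, and 8.80 against 8.87 and 8.87 in WT. All windows of NM_001190476 and NM_001190470 had an unadjusted p above 0.05 in WT.

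NM_001190702 had more coverage at its main summit and less on its flank with demethylase. Mean coverage near the summit was 31.6 with demethylase against 26.9 and 25.2 with IP alone in KO, and 33.5 against 29.2 and 26.7 in WT. In the window beginning at nt 630 the coverage was 0.745 with demethylase against 3.97 and 5.20 with IP alone in KO. In WT that window had 0.258 with demethylase against 2.55 and 4.02 with IP alone. Demethylase coverage was more than 1.5 times below both IP libraries in both genotypes in 35 of 86 windows with mean coverage of at least 1, all beginning between nt 585 and 815.

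NM_001190452 was covered further toward its start with demethylase in both genotypes. The centre of its profile was at nt 988 with demethylase against nt 1002 and 1003 with IP alone in KO. In WT it was at nt 982 with demethylase against nt 1004 and 1006 with IP alone. In the window beginning at nt 930 of KO the coverage was 3.70 with demethylase and 0.917 and 0.765 with IP alone. In the window beginning at nt 925 of WT it was 4.26 with demethylase and 0.830 and 0.303 with IP alone.

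Just below the summit of NM_001190452, demethylase coverage was more than 1.5 times above both IP libraries in both genotypes in 9 windows, beginning between nt 915 and 955. Above the summit, it was as far below both IP libraries in 3 windows, beginning between nt 1045 and 1055. The centre with demethylase minus that of each IP library was -14.7 and -15.4 nt in KO and -21.9 and -23.9 nt in WT. The gap between the IP replicates was 0.695 nt in KO and 2.05 nt in WT. By limma the lowest adjusted p on this transcript was 0.0891 in KO and 0.0722 in WT.

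NM_001190706 had unlike profiles in the 2 genotypes. In KO the mean coverage near its summit was 10.2 with demethylase against 10.1 and 9.99 with IP alone. In WT it was 8.86 with demethylase against 10.4 and 10.1 with IP alone, and the centre of the profile lay 15.95 and 13.97 nt further along the transcript than in the IP libraries. In KO the centre with demethylase lay 1.75 and 1.23 nt further along.

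Between the 2 called peaks of NM_001190706 there was demethylase signal in WT. In the window beginning at nt 295, outside both peaks of the second WT list, the rescaled coverage was 4.84 with demethylase against 0.112 and 0 with IP alone. KO had no shared windows there.

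**Figure D5:**
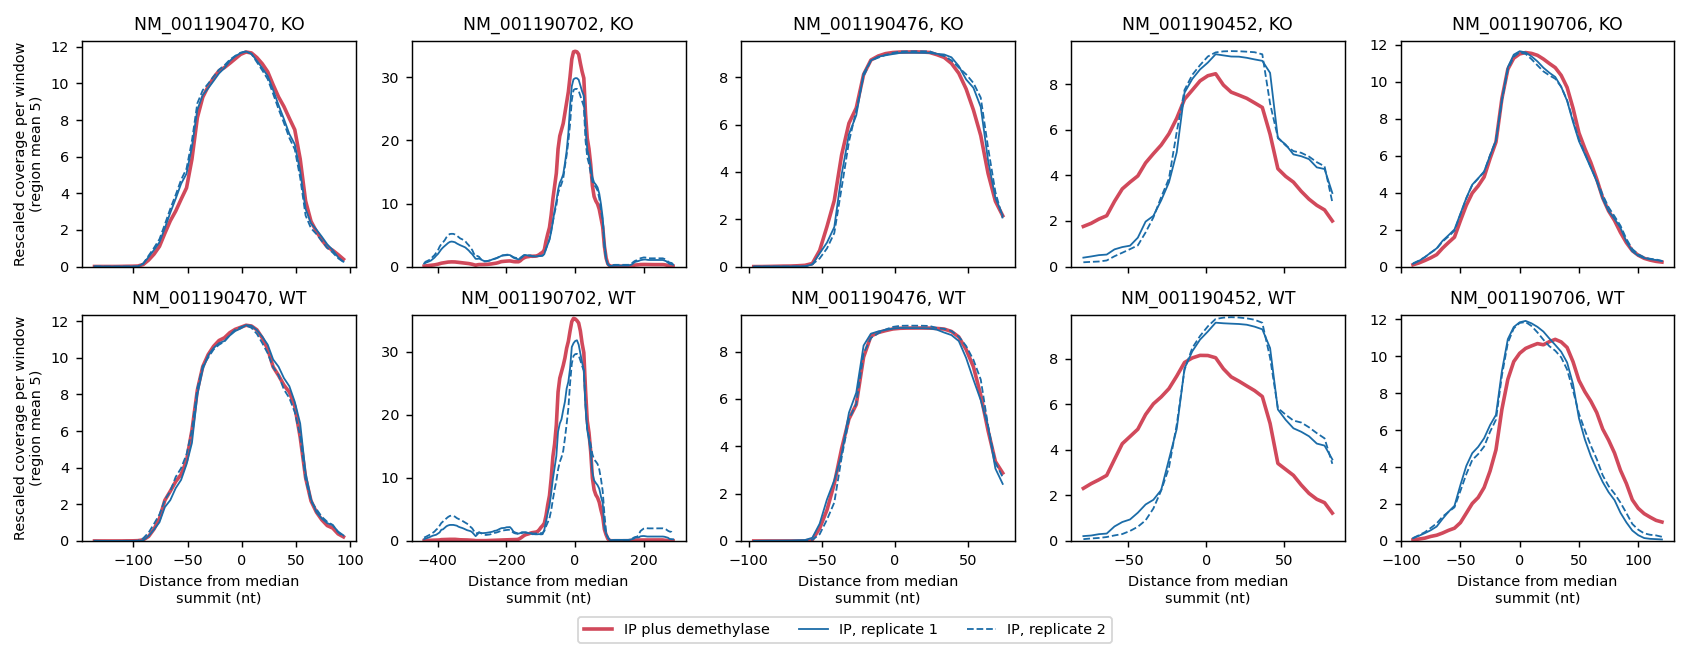
Rescaled coverage along the 5 humanin-like transcripts in KO (top) and WT (bottom), against the distance from the median summit in nt. The thick line is the library with demethylase and the thin lines the 2 IP replicates. Profiles nearly coincide on NM_001190470 and NM_001190476, lie at lower positions with demethylase on NM_001190452, and lie at higher positions on NM_001190706 in WT, where the mean near the summit is 8.86 with demethylase against 10.4 and 10.1 in the IP libraries.

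The difference between KO and WT in the effect of demethylase was examined in 1 limma fit over 6 libraries. Each genotype had 1 demethylase library, so the spread used came from the IP replicates alone. A difference between genotypes and a difference between those 2 libraries cannot be told apart by this fit. It called 4.19% of 10704 windows higher and 1.69% lower in KO. It called 0 of 206 windows on the humanin-like transcripts. At an unadjusted p under 0.05 there were 23 such windows (11.2%, against 27.5% of all windows), all 23 on NM_001190706. The lowest adjusted p of that transcript was 0.0761, in the window beginning at nt 80. The other 4 transcripts had 0 windows at that level. Without the first WT IP library the fit called 4 windows on the humanin-like transcripts and 1112 in all, against 629 in all with it. Without the second WT IP library it called 0 and 1328, and without either KO IP library 0 and 0.

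The IP libraries were also compared alone. For KO against WT, limma called 0% of 10757 windows higher and 0% lower, and 0 of 232 windows on the humanin-like transcripts. At an unadjusted p under 0.05 there was 1 such window, on NM_001190470 (0.431%, against 19.2% of all windows). Without the second WT IP library the fit called 64 windows in all and 0 on these transcripts. No shape difference of the antibody signal between KO and WT was thus called on the shared stretches of these 5 transcripts. Stretches not held by all IP libraries were outside the fit. On NM_001190702 the windows ran from nt 110 to 1294 in the first WT replicate and nt 547 to 1286 in the first KO replicate. The main fit called 0 windows on any transcript, so its 0 here is no evidence of like shapes.

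Folds of most pairs of the 5 transcripts varied together over the lists. Pearson's r of log2 fold between pairs of them ran from 0.42 to 0.96 over the 10 lists, and was at least 0.5 for 9 of 10 pairs. Without the first WT list it ran from -0.46 to 0.86 over 9 lists, and was at least 0.5 for 6 of 10 pairs. Each of the other 4 pairs included NM_001190452 or NM_001190706. The lowest in each case was between NM_001190452 and NM_001190706.

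Of 138 other transcripts with a peak in every list, the 5 whose log2 fold was most like the mean of the humanin-like transcripts over the 10 lists were PREP (r = 0.73), MAP1LC3B (r = 0.72), SPPL3 (r = 0.72), ZIC2 (r = 0.70) and GNAS (r = 0.69). PREP encodes a peptidase, MAP1LC3B an autophagy protein, SPPL3 a membrane protease, ZIC2 a transcription factor and GNAS a G-protein subunit. These r values are descriptions over lists that share the first WT list.

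Of 289 other transcripts without a symbol, those with the highest median fold were NM_001124756, NM_145813, NM_001080542, NR_024359 and NR_027064. Of these, NM_001080542 was in 10 lists, with a median fold of 28.7, and the other 4 were in 1 list each. NM_001190472, NM_001190708 and NM_001190487 were picked after their values were seen, because their identifiers run close to those of the set. NM_001190472 had a summit between nt 650 and 675 and folds of 16.6 and 13.2 in KO lists and 80.9 and 11.9 in WT lists. NM_001190487 was called in 3 lists, with its highest fold, 14.8, in the first WT list.

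No named member of the MTRNR2L family and no record of the mitochondrial 16S ribosomal RNA had a peak under its own symbol, out of 15 names looked for. The gene table gives 0 MTRNR2L genes a transcript record, so no list entry could carry such a symbol. Nothing is therefore read from the absence of that family. Of 14 genes that write, remove or bind m1A, 9 had a peak in some list, with 1 to 7 in a list. HSD17B10, a subunit of the mitochondrial tRNA m1A enzyme, had folds of 6.94 and 6.31 in KO lists and 12.6 and 4.27 in WT lists. TRMT10C, its partner, had folds of 5.35 and 5.95 in Starve lists.

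Peaks were also found on reader proteins. YTHDF1 had folds of 2.19 and 6.50 in WT lists. YTHDF2 had 5.005 and 1.86 in KO lists, 2.89 and 6.14 in WT lists, and 5.94 and 13.5 in Starve lists. YTHDC1 had 8.28 and 5.63 in Starve lists. Folds of a gene in different lists need not be of the same peak or record. The YTHDF2 summits were at nt 111 and 449 in KO lists, on different records, and at nt 757 and 105 in WT lists. Of 10 genes for binding partners and receptors of humanin, 4 had a peak in some list. BAX, a pro-apoptotic protein that humanin binds, had folds of 7.88 and 19.98 in Starve lists. BID, another such protein, had folds of 5.16 and 5.53 in KO lists and 4.71 and 4.28 in UT lists. The BAX fold of 19.98 came from the second Starve list, where NM_001190452 had 22.4 and NM_001190706 had 7.77. The BAX pileup in that list was 198, against 1705 and 4474 on these 2 transcripts. The other folds printed for these gene lists were below the median folds of NM_001190452, which was 19.8, and of NM_001190706, which was 16.6.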

How the data were processed

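The lists and windowed tables were used as deposited. Per the submitters' processing notes, Trim Galore, HISAT, MACS2 and the build hg19 were used, with no versions, roles or order, and the control input of a list was not given in the sources used here, or how windows were made. The deposited peak lists, 1 for each IP replicate per the file headers, give a pileup signal, a fold enrichment ratio over local background, and −log10 p-values and −log10 q-values by the authors' peak caller. The deposited windowed tables give a coverage signal in 10-nt windows that start every 5 nt, which the authors had scaled to a near-constant sum per region, and a score, treated minus IP.

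The humanin-like transcripts and all gene lists were chosen with earlier results of these data known. Those named were the 5 records in every list, 28S ribosomal RNA, up to 5 transcripts most like them, up to 5 others without a symbol, and the preset gene lists. Symbols came from a RefSeq table of assembly GRCh38.p14 and served as names alone, with 17021 of the 17315 transcripts found in it. The strongest peak of a transcript is that with the highest fold. Per-list values carry no depth of the libraries, which is unknown here.

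Windows were interpolated to positions at multiples of 5 nt, kept where all files of a fit and at least 10 windows in a row shared them, and rescaled to a mean of 5. Windows with mean coverage of at least 1 entered limma 3.58.1 (R 4.3.3) on log2(coverage + 1), with a trend in the variance and Benjamini-Hochberg adjustment over all windows. A log2 ratio fit counting demethylase columns as replicates had been planned. Since each pair held 1 library, the KO to WT fit instead used 6 libraries, and IP alone was added as a fit. The procedure was tested on simulated data. Intervals are not given, since the files hold no read totals.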

Additional observations from a re-analysis of the deposited data

Results flagged for a closer look

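With 2 lists or libraries in a group, no group was large enough to look for a sample far from the others. For 2 transcripts the library with demethylase moved away from both IP libraries in opposite directions in the 2 genotypes, measured as the mean rescaled coverage within 25 nt of the median summit. The difference between genotypes in this mean was not itself tested.

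On NM_001190706 demethylase minus IP was 0.126 in KO and -1.40 in WT, a difference of 1.53. The gap between the IP replicates was 0.101 in KO and 0.230 in WT. On NM_001190476 demethylase minus IP was 0.019 in KO and -0.0673 in WT, a difference of 0.0862, beside gaps between the IP replicates of 0.0215 in KO and 0.0006 in WT. Each genotype has 1 library with demethylase, so a trait of that library and a trait of the genotype cannot be told apart.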

How the results depend on the processing

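Of the 251 alternatives run, 23 were labelled as moved and 0 as reversed. Most were counts, medians, ranges or shares, which have no direction to reverse, so nothing is read from that 0. Comparisons of fold between KO and WT lists, and between stressed and UT lists, were not among the alternatives. As a percent of the 28S ribosomal RNA pileup, NM_001190470 and NM_001190706 were higher in both KO lists than in the second WT list. Their folds were lower. NM_001190476 and NM_001190452 were lower on both scales, and NM_001190702 lay on either side on the 28S scale. The 55 peaks became 52 at a fold of at least 4. When any list was left out, the median folds and pileups of single transcripts moved by less than the spread between replicates. The summit range of NM_001190476 was 12 nt without the first KO list, against 19 nt with it, and that of NM_001190470 was 3 nt without the second Starve list, against 5 nt with it. NM_001190452 and NM_001190706 had ranges of 11 and 10 nt without 1 list, against 14 and 11 nt. Without any 1 list the median share of pileup on the 5 transcripts was 4.31% to 4.35%. With 28S ribosomal RNA left out of the denominator it was 12.4%, and 77.8% in the first WT list. With pileup in place of fold, 5 transcripts and not 14 reached a ratio of 4 between the WT lists.

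For demethylase against IP in WT, a pseudocount of 0.1 gave 3 windows on the 5 transcripts and 2826 over all windows, where the chosen setting gave 0 and 0. For the KO to WT difference in demethylase over IP, the count over all windows was 629. It was 1056 with a pseudocount of 0.1, 89 with no filter and 0 with the replicate block, and from 0 to 1328 when 1 IP library was left out (0 without either KO library, 1112 without the first WT library, 1328 without the second). On the 5 transcripts it was from 0 to 4 when 1 IP library was left out, with the 4 coming without the first WT library. Counting demethylase columns as replicates, an alternative chosen after seeing the data, gave 35 windows on the 5 transcripts and 3368 in all. For IP alone, leaving out 1 library gave 0 to 64 windows in all and 0 on the 5 transcripts. The causes were not tested.

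The replicate numbers were not used to pair the libraries in the main fits. Differences between IP replicates in rescaled coverage correlated at 0.03143 between KO and WT. This value does not settle whether replicates were prepared in pairs. No paired analysis was possible for demethylase against IP within a genotype, because 1 demethylase library cannot be paired, and leaving out an IP library there leaves no spread to test with. Nearest windows in place of interpolation, also chosen later, changed no count by more than 1.5 times.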
